A study of Mus musculus with 37 samples.

Results

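Milk carries calcium, phosphate and zinc at levels that the mammary epithelium sets by active transport, and 9 genes of that transport are described here across pregnancy: the calcium pumps Atp2b2 and Atp2c2, the phosphate carrier Slc34a2, the zinc transporters Slc30a2, Slc30a4 and Slc39a8, the related pump Atp13a4, the calcium-sensing receptor Casr and the hormone gene Pthlh. For each gene the probe set annotated to that symbol alone was used, and 8 of the 9 genes had one, out of 19937 genes with such a probe set. All 8 entered the tests, which covered 16865 genes. Pthlh was not analysed here.

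The arrays measured total RNA (100 ng) of whole mammary glands from FVB mice that carried both copies of the gene for the tyrosine phosphatase PTP1B (PTP1B +/+, here WT) or neither (PTP1B -/-, here KO), in a line backcrossed to FVB for at least 7 generations. Glands were taken from nulliparous females at oestrus (P0) and on pregnancy days 3, 7, 10 and 15 (P3, P7, P10 and P15), with mating at 12 weeks of age. The WT groups held 4, 3, 4, 3 and 4 arrays in that order of stages and the KO groups 4, 3, 5, 3 and 4, which gives 37 Affymetrix arrays. The labels name no agent given to either genotype and tie the deletion to no single cell type. The labels do not say that replicates came from separate animals, so the p-values measure the spread between arrays. A whole gland holds fat, epithelium, stroma, vessels and, in some dissections, lymph node or muscle. A higher or lower value for a gene cannot be told apart as a change in the cells that express it or in RNA per cell.

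Milk calcium is loaded into the secretory pathway by Golgi pumps and pushed across the apical membrane by a plasma membrane pump, while phosphate and zinc enter milk through their own carriers. In the lactating gland the calcium-sensing receptor reads the calcium supply from blood and tunes both calcium transport and the release of parathyroid hormone-related protein, the product of Pthlh, which frees calcium from bone. Most of this machinery is known for its work in lactation, and pregnancy is the time when the secretory alveoli that will use it are formed.

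Several arrays stood apart. Levels of Ptpn1, the deleted gene, lay between 7.90 and 9.06 log2 units in the WT arrays and between 5.36 and 6.49 in 18 KO arrays, but at 8.68 in the array labelled KO P15 replicate 3, which is inside the WT range. Scores of 10 skeletal muscle markers were 4.89 in WT P0 replicate 4, 5.24 in KO P3 replicate 1 and 2.35 in KO P7 replicate 3, against -0.80 to 0.36 in the other 34 arrays. Scores of 10 tested B and T lymphocyte markers were 4.11 and 4.02 in KO P10 replicates 2 and 3 and 1.23 in WT P7 replicate 1, against -0.78 to 0.51 elsewhere. A score is the mean log2 value of the listed genes after each was centred on its mean over the 37 arrays.

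Nearly all of the mineral transport genes rose by P15. In WT glands 7 of the 8 members were higher at P15 than at P0 and none was lower, against 48.8% of all tested genes that differed in either direction and 21.6% that were higher. In KO glands 7 of 8 were again higher, against 41.3% of all tested genes that differed and 19.5% that were higher. The median difference of the 8 members was 1.53 log2 units in WT and 1.45 in KO, beside medians of -0.06 and 0.01 over all tested genes. The members were chosen with earlier results of these data known, so these comparisons with all genes describe the set and do not test it. Calls rest on limma's moderated test with an adjusted p under 0.05 over the 16865 genes, and within a genotype the 4 arrays at P0 serve every comparison with P0. Both counts stayed at 7 without the 7 arrays that stood apart, and the KO count stayed at 7 without the array labelled KO P15 replicate 3.

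**Figure D1:**
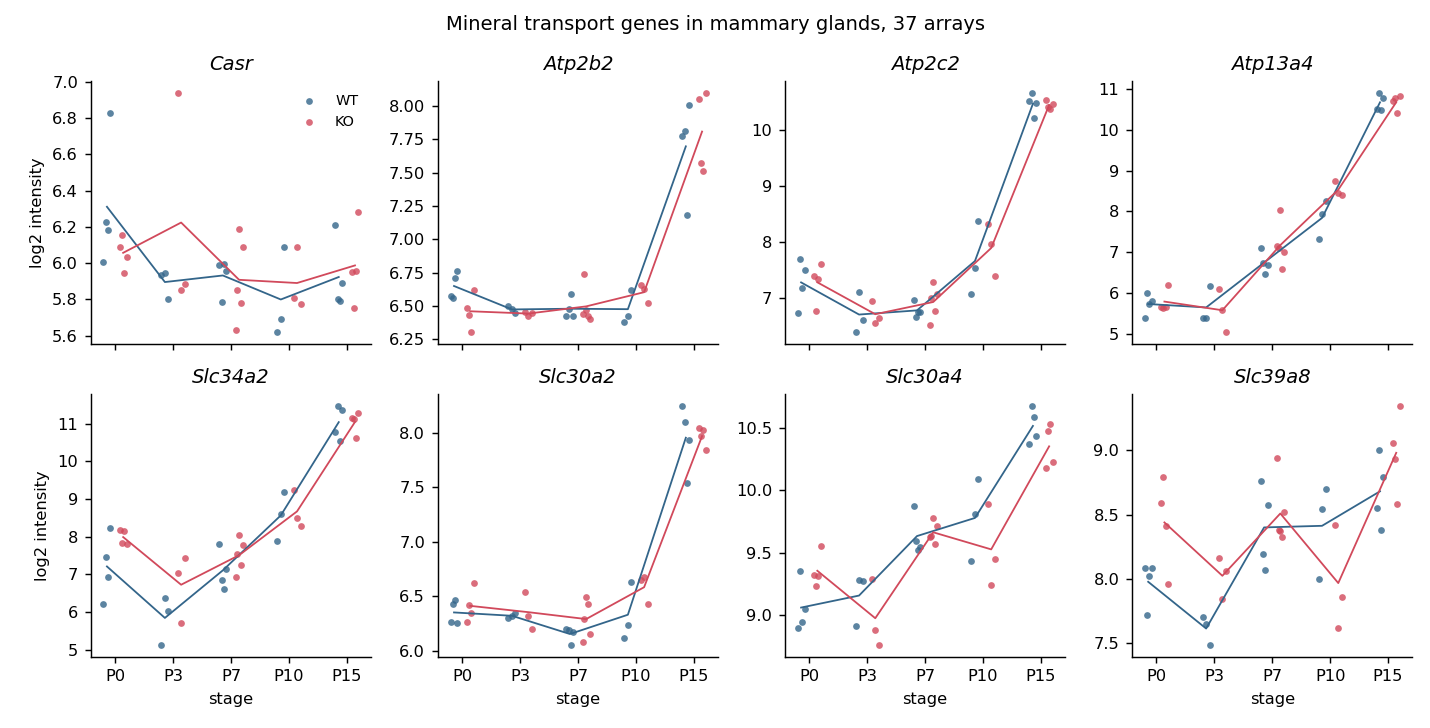
Log2 intensity (vertical axis) of the 8 measured genes in each of the 37 arrays at P0, P3, P7, P10 and P15 (horizontal axis), with 1 point per array and lines through the WT and KO group means. For Atp2b2, Atp2c2, Slc34a2, Slc30a2, Slc30a4 and Atp13a4 all 8 P15 arrays lie above all 29 earlier ones, while Casr has its highest values in single P0 and P3 arrays. The share of all tested genes separated in this way is not given here.

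Atp2b2 encodes PMCA2, the plasma membrane calcium pump that moves calcium across the apical face of alveolar cells into milk. Its log2 intensity in the 4 WT P0 arrays was 6.57, 6.56, 6.71 and 6.76, and in the 4 WT P15 arrays it was 7.78, 7.81, 7.18 and 8.01. In KO glands the values were 6.48, 6.43, 6.31 and 6.62 at P0 and 8.05, 7.57, 7.51 and 8.10 at P15. Every P15 array lay above every P0 array in both genotypes. The pump rose by 1.05 ± 0.13 log2 units in WT (SE, adjusted p = 6.01e-08, limma) and by 1.35 ± 0.13 in KO (adjusted p = 7.81e-10).

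The rise of Atp2b2 was not visible before the last stage. The 29 arrays before P15 spanned only 6.31 to 6.76, and differences from P0 at P3, P7 and P10 lay between -0.18 and 0.14 log2 units with no call in either genotype. From P10 to P15 the gene rose by 1.22 ± 0.14 in WT (adjusted p = 6.98e-08) and by 1.20 ± 0.14 in KO (adjusted p = 1.36e-07).

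Atp2c2 encodes SPCA2, the Golgi calcium and manganese pump that is characteristic of secretory epithelia and fills the vesicles in which casein is packed. It was at 6.74, 7.69, 7.17 and 7.50 in the WT P0 arrays and at 10.52, 10.65, 10.20 and 10.48 at P15. In KO glands it was at 7.39, 6.77, 7.34 and 7.61 at P0 and at 10.52, 10.41, 10.38 and 10.46 at P15. The 8 P15 arrays were tightly packed and sat more than a log2 unit above the highest earlier array, at 8.37. Atp2c2 rose by 3.19 ± 0.23 in WT, a 9.11-fold higher intensity (adjusted p = 5.09e-12), and by 3.16 ± 0.23 in KO (adjusted p = 6.36e-12).

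Before P15 the Golgi pump was called at no stage against P0, though in KO glands it rose from P7 to P10. At P3 its difference from P0 was -0.57 ± 0.25 in both genotypes, with adjusted p = 0.106 in WT and 0.108 in KO, so no call was made. Without WT P0 replicate 1 the WT difference of Atp2c2 was called (-0.75, adjusted p = 0.0454). In KO glands it rose by 0.96 ± 0.24 from P7 to P10 (adjusted p = 0.00324), with 6.51 to 7.29 in the 5 KO P7 arrays and 8.32, 7.97 and 7.38 at P10. The matching WT difference of 0.88 ± 0.25 had an adjusted p of 0.111. Without the lymphocyte-rich arrays only KO P10 replicate 1 remained at that stage, and the KO difference of Atp2c2 was larger, 1.39. Over the 14 alternatives other than single arrays left out, this difference ran from 0.54 to 1.48 and was called in 12.

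Atp13a4 encodes a P-type ATPase of the P5B group, relatives of the calcium pumps that handle polyamines or cations. It showed the largest rise of the set at P15 and was the only member called at P7 and P10 in both genotypes. WT arrays read 5.39, 5.99, 5.73 and 5.79 at P0, then 7.10, 6.73, 6.46 and 6.69 at P7, and KO arrays read 5.66, 5.64, 5.66 and 6.18 at P0, then 7.16, 7.10, 8.04, 6.58 and 6.99 at P7. At P10 the WT arrays read 7.32, 7.95 and 8.26 and the KO arrays 8.76, 8.45 and 8.39. At P15 the WT arrays read 10.52, 10.91, 10.50 and 10.80 and the KO arrays 10.73, 10.78, 10.41 and 10.83. No P7, P10 or P15 array overlapped the P0 arrays of its genotype, and at P3 the groups overlapped.

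The stepwise rise of Atp13a4 from P0 was 1.02 ± 0.24 at P7, 2.12 ± 0.26 at P10 and 4.96 ± 0.24 at P15 in WT, with adjusted p = 0.00263, 3.74e-06 and 1.59e-15 (limma). In KO it was 1.39 ± 0.23, 2.75 ± 0.26 and 4.90 ± 0.24, with adjusted p = 0.000104, 8.41e-09 and 2.21e-15. The WT rise at P15 was 31.1-fold on the linear intensity scale. At P3 the differences were -0.08 ± 0.26 in WT and -0.21 ± 0.26 in KO, neither called. All 6 of these later calls held under each of the 51 alternatives, including each array left out in turn.

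**Figure D2:**
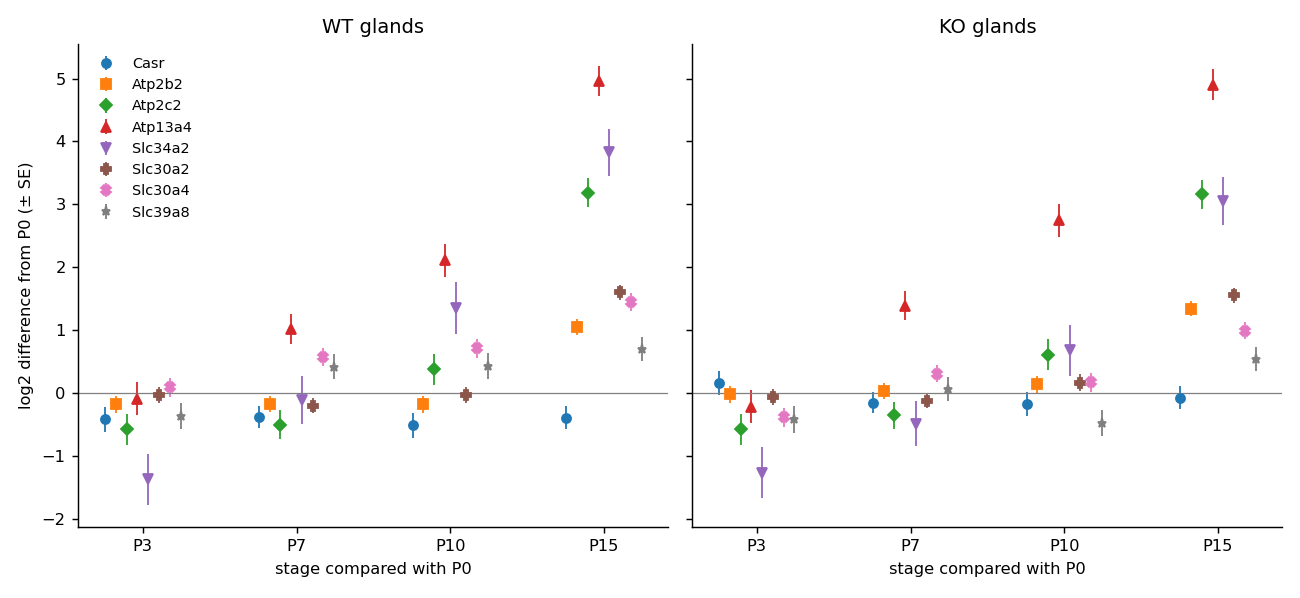
Log2 difference from P0 (vertical axis, ± SE) at P3, P7, P10 and P15 (horizontal axis) for the 8 genes, in WT glands (left) and KO glands (right). Atp13a4 is at 1.02 and 1.39 by P7 in WT and KO, while Atp2b2 and Slc30a2 stay near 0 until P15.

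Slc34a2 encodes NaPi-IIb, the sodium-coupled phosphate carrier of the apical membrane. Its log2 intensity was 6.21, 7.46, 6.94 and 8.23 in WT P0 arrays and 8.17, 7.83, 8.16 and 7.80 in KO P0 arrays. At P15 it was 10.78, 11.46, 10.54 and 11.36 in WT and 11.15, 11.13, 10.62 and 11.27 in KO. The P15 arrays were again above all earlier ones, whose highest value was 9.23. The carrier rose by 3.83 ± 0.38 in WT, or 14.2-fold (adjusted p = 1.7e-09), and by 3.05 ± 0.38 in KO (adjusted p = 1.24e-07).

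Slc34a2 was the single member called at P3, and there it was lower. Of all tested genes 18.1% differed from P0 in WT (6.5% lower) and 18.8% in KO (11% lower). WT P3 arrays read 5.13, 6.38 and 6.02 and KO P3 arrays 7.03, 5.71 and 7.44. The WT groups overlapped, since P0 replicate 1 at 6.21 lay below P3 replicate 2, and the KO groups did not. Slc34a2 fell by 1.36 ± 0.41 in WT (adjusted p = 0.0189) and by 1.26 ± 0.41 in KO (adjusted p = 0.029).

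Both P3 decreases of Slc34a2 rested on single arrays. In WT the call was lost without the muscle-rich P0 replicate 4 (-1.02, adjusted p = 0.0864), without P3 replicate 1 (-1.01, adjusted p = 0.12) and without P3 replicate 3 (-1.45, adjusted p = 0.0582). In KO it was lost without P3 replicate 2 (-0.75, adjusted p = 0.244), without P0 replicate 1 (-1.20, adjusted p = 0.0656) and without P0 replicate 3 (-1.21, adjusted p = 0.0638).

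By P10 the phosphate carrier was above P0 in WT, at 7.89, 8.61 and 9.19. The difference was 1.35 ± 0.41 (adjusted p = 0.019), with overlap at P0 replicate 4, and the call was lost without P0 replicate 1 (1.02, adjusted p = 0.0821), P10 replicate 2 (1.33, adjusted p = 0.0678) or P10 replicate 3 (1.04, adjusted p = 0.112). In KO glands Slc34a2 read 9.23, 8.49 and 8.29 at P10, a difference from P0 of 0.68 ± 0.41 with adjusted p = 0.213.

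The RefSeq promoter window of Slc34a2 is shown because the gene was among the strongest risers and because 2 copies of the metal response element core fall in it. Windows of 250 bases before the annotated start (build GRCm38.p6) were held for 8 of the 9 members, 12 windows in all, and none was held for Atp2c2. The core was searched on both strands as TGCACNC or TGCGCNC, the short sequence to which the zinc-sensing factor MTF1 is known to bind, and capitals mark each match. The Slc34a2 window lies at chr5:53049103-53049352 on the plus strand, just before the gene body.
Slc34a2: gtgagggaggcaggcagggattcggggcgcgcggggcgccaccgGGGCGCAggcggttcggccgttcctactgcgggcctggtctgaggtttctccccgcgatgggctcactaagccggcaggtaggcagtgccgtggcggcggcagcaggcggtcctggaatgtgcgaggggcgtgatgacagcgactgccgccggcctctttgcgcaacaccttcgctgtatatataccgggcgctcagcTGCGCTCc

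Slc30a2 encodes ZnT2, which loads zinc into secretory vesicles of the mammary epithelium and whose loss in mothers gives zinc-poor milk. It read 6.26, 6.43, 6.46 and 6.25 in WT P0 arrays and 8.24, 8.10, 7.54 and 7.93 at P15. In KO glands it read 6.26, 6.42, 6.34 and 6.62 at P0 and 8.04, 7.97, 8.02 and 7.84 at P15. All P15 arrays were above the 29 earlier ones, which spanned 6.05 to 6.68. ZnT2 rose by 1.60 ± 0.12 in WT (adjusted p = 9.54e-12) and by 1.56 ± 0.12 in KO (adjusted p = 2.02e-11), and like Atp2b2 it was called at no earlier stage against P0.

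Slc30a4 encodes ZnT4, the zinc exporter mutated in the lethal milk mouse. It read 8.90, 9.35, 8.94 and 9.05 in WT P0 arrays, 9.88, 9.59, 9.52 and 9.54 at P7, and 10.37, 10.68, 10.58 and 10.43 at P15. In KO glands it read 9.32, 9.24, 9.31 and 9.55 at P0, between 9.57 and 9.78 at P7, and 10.18, 10.47, 10.53 and 10.23 at P15. Both genotypes had P7 arrays that lay wholly above P0.

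ZnT4 rose in WT by 0.57 ± 0.14 at P7 (adjusted p = 0.00334), 0.72 ± 0.15 at P10 (adjusted p = 0.00172) and 1.46 ± 0.14 at P15 (adjusted p = 1.15e-09). In KO the differences at P7 and P10 were 0.31 ± 0.13 (adjusted p = 0.116) and 0.17 ± 0.15 (adjusted p = 0.416), and at P15 it rose by 0.997 ± 0.14 (adjusted p = 1.07e-06). At P3 the KO difference of Slc30a4 was -0.38 ± 0.15 (adjusted p = 0.0779), and without the muscle-rich KO P3 replicate 1 it was called (-0.54, adjusted p = 0.0321). For Slc30a4 the genotype difference did not pass the test of a change between stages (adjusted p = 0.197, limma's F). With a pan-epithelial marker score as a covariate the WT P7 rise of Slc30a4 was 0.35 (adjusted p = 0.0289), and with only the WT P0 and P10 groups fitted the P10 rise was 0.72 with adjusted p = 0.0631.

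Slc39a8 encodes ZIP8, an importer of zinc and manganese. It read 8.08, 7.72, 8.03 and 8.09 in WT P0 arrays and 8.55, 9.001, 8.38 and 8.79 at P15, without overlap. In KO glands it read 8.59, 8.79, 8.41 and 7.96 at P0 and 9.06, 8.93, 8.59 and 9.34 at P15, where the groups overlapped. Its rise was the smallest of the 7, at 0.70 ± 0.20 in WT (adjusted p = 0.00354) and 0.54 ± 0.20 in KO (adjusted p = 0.0254).

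The WT rise of Slc39a8 held under all 51 alternatives and the KO rise did not. The KO call was lost without P0 replicate 4 (0.38, adjusted p = 0.131), P0 replicate 3 (0.53, adjusted p = 0.0505), P15 replicate 1 (0.51, adjusted p = 0.0585) or P15 replicate 4 (0.42, adjusted p = 0.113), with each array centred on its median (0.40, adjusted p = 0.0975) and with the compared groups fitted alone (0.54, adjusted p = 0.0525).

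The metal response element core was also found in windows of the zinc transporters, 2 copies each for Slc30a2 and Slc30a4 and 1 for Slc39a8, and in no window of Atp2b2, Casr, Pthlh or Atp13a4. Among all 32851 RefSeq windows of that length, 21.4% hold it. That share counts windows, not genes, and some members have more than 1 window. Slc39a8 held the core in 1 window and lacked it in another. Whether the members differ from other genes in this was not tested. The STAT5 site TTCNNNGAA, named for the factor that prolactin activates in alveolar cells, was in 0 of the 12 windows and in 7.02% of all windows. These letters describe the windows and say nothing of binding. The sequences with matches are given to show where the core lies, as the whole window for Slc30a4 at chr2:122702664-122702913 (minus strand), and as 30 bases for Slc30a2 at chr4:134343248-134343277 (plus strand) and Slc39a8 at chr3:135825627-135825656 (plus strand), whose windows lie inside the gene bounds.
Slc30a4: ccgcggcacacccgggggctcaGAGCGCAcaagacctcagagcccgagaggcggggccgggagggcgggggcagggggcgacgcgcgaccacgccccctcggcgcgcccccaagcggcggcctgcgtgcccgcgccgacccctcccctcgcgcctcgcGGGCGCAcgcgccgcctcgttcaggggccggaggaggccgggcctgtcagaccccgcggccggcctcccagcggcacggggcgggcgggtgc
Slc30a2: tcccGCGCGCAacttcgaGGGCGCAccgag
Slc39a8: ttatctctaaaGGGTGCAgggcctgatctc

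Casr, the receptor through which cells sense extracellular calcium, was the member that did not rise. It read 6.01, 6.23, 6.18 and 6.83 in WT P0 arrays and 6.21, 5.80, 5.79 and 5.89 at P15. In KO glands it read 6.09, 6.16, 5.95 and 6.04 at P0 and between 5.75 and 6.28 at P15. The difference was -0.39 ± 0.18 in WT (adjusted p = 0.0734, 95% interval -0.75 to -0.02) and -0.07 ± 0.18 in KO (adjusted p = 0.80, 95% interval -0.43 to 0.29).

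The WT difference of Casr changed its call with the scaling, a covariate and single arrays. Over the 14 alternatives other than single arrays left out, it ran from -0.59 to -0.06, with adjusted p up to 0.724 (limma). It was called in 3 of these 14 and in 3 of the 37 fits that left out 1 array. It was called lower after quantile normalisation (-0.59, adjusted p = 0.00562), after median centring (-0.58, adjusted p = 0.00718) and with the pan-epithelial score as a covariate (-0.57, adjusted p = 0.0421). It was also called without WT P0 replicate 1 (-0.49, adjusted p = 0.0377), without WT P15 replicate 1 (-0.48, adjusted p = 0.0384) and, through the shared spread, without KO P3 replicate 1 (-0.39, adjusted p = 0.0236), while without WT P0 replicate 4 it was -0.22 with adjusted p = 0.345.

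The highest Casr values, 6.94 and 6.83, were in KO P3 replicate 1 and WT P0 replicate 4, both rich in muscle markers. KO P7 replicate 3, also muscle-rich, read 6.19. That was the highest of its group but inside the 5.62 to 6.28 of the 34 other arrays. Without these 3 arrays the KO minus WT difference of Casr at P3 went from 0.33 to -0.03, and the KO difference between P3 and P0 from 0.17 to -0.19. In WT the differences of Casr from P0 were -0.41 at P3, -0.38 at P7 and -0.51 at P10, with 95% intervals that left out 0 and no call (adjusted p = 0.134, 0.106 and 0.0559). Without the muscle-rich P0 replicate 4 they were -0.24, -0.21 and -0.34 (adjusted p = 0.415, 0.412 and 0.224). The P10 difference was called with array weights (-0.49, adjusted p = 0.0123), with the pan-epithelial score as a covariate (-0.57, adjusted p = 0.0378), and in 5 of the 37 fits that left out 1 array.

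**Figure D3:**
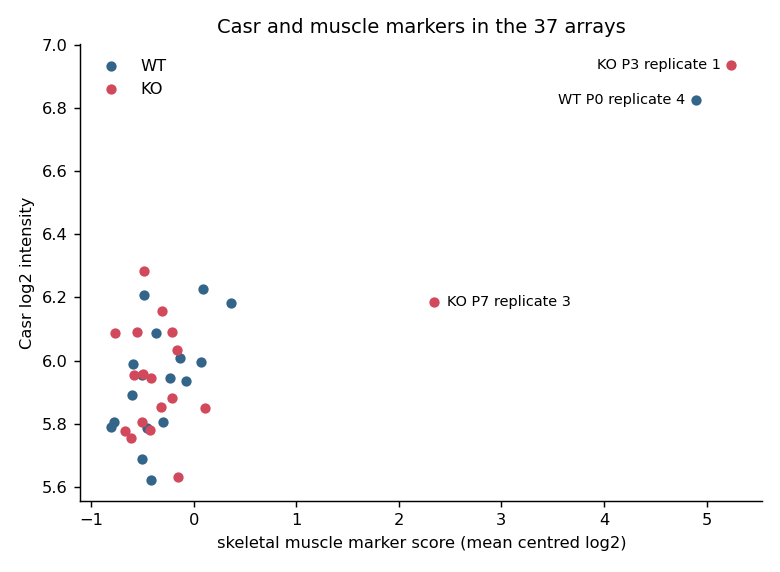
Casr log2 intensity (vertical axis) against the score of 10 skeletal muscle markers (horizontal axis, mean centred log2) in each of the 37 arrays, coloured by genotype. The arrays at scores of 4.89 and 5.24 have the highest Casr values, 6.83 and 6.94, and the array at 2.35 reads 6.19.

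Between neighbouring stages the most members were called in the last step, though not every member changed most there. From P10 to P15, 6 of 8 members rose in WT (39.6% of all tested genes differed, 17.1% higher) and 7 of 8 in KO (32.1% differed, 16.2% higher). The largest steps were 2.84 ± 0.26 for Atp13a4 and 2.81 ± 0.25 for Atp2c2 in WT (adjusted p = 3.59e-09 and 1.77e-09). Slc39a8 rose by 1.01 ± 0.21 in KO (adjusted p = 0.000377), and its WT difference was 0.27 ± 0.21 (adjusted p = 0.321). The difference between these steps was not tested. Without the lymphocyte-rich arrays, which left KO P10 with 1 array assumed to vary like the other groups, the KO step was 0.56 for Slc39a8 (adjusted p = 0.214) and 0.46 for Slc30a4 (adjusted p = 0.141), and 5 members were called. With lymphocyte and muscle scores as covariates the steps were 0.76 for Slc39a8 and 0.56 for Slc30a4 (adjusted p = 0.0906 and 0.0647), without all 7 arrays that stood apart 0.69 and 0.40 (adjusted p = 0.121 and 0.187), and with the pan-epithelial score as a covariate 0.93, still called, and 0.37, not called (adjusted p = 0.0142 and 0.0664).

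Earlier steps gave fewer calls. From P3 to P7, 4 of 8 members rose in WT (10% of all tested genes differed, 5.24% higher): Slc34a2 by 1.26 ± 0.41, Atp13a4 by 1.10 ± 0.26, Slc39a8 by 0.79 ± 0.21 and Slc30a4 by 0.48 ± 0.15, with adjusted p = 0.045, 0.00689, 0.016 and 0.0418. None of the 4 was called without WT P3 replicate 1, and 1 was called without WT P3 replicate 3 or WT P7 replicate 1, the latter lymphocyte-rich, and 2 without WT P7 replicate 2 or 4. In KO, 2 rose (16.9% of all tested genes differed, 9.56% higher), Atp13a4 by 1.60 ± 0.25 and Slc30a4 by 0.69 ± 0.15 (adjusted p = 8.59e-05 and 0.00147), and both held with each array left out in turn.

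From P7 to P10 no member was called in WT by limma, where 0.208% of all tested genes were called and 3 members (Atp13a4, Atp2c2 and Slc34a2) had an unadjusted p under 0.05. The largest WT step, 1.10 ± 0.26 for Atp13a4 (adjusted p = 0.0604), was called without WT P10 replicate 1 (1.36, adjusted p = 0.0412) and, through the shared spread, without replicate 2 of WT P0 (adjusted p = 0.0457), replicate 1 of KO P3 (0.0481), replicate 3 of KO P7 (0.0325) or replicate 1 of KO P10 (0.046). In KO, 4 of 8 were called (24% of all tested genes, 12.3% higher and 11.7% lower): Atp13a4, Slc34a2 and Atp2c2 higher by 1.36 ± 0.25, 1.16 ± 0.39 and 0.96 ± 0.24, and Slc39a8 lower by 0.54 ± 0.20 (adjusted p = 0.0492). KO P10 replicates 2 and 3 were lymphocyte-rich. Without the lymphocyte-rich arrays KO P10 was left with 1 array, and the steps of Atp13a4, Slc34a2 and Atp2c2 were larger, at 1.59, 1.72 and 1.39. Other alternatives made these steps smaller. Over the 14 alternatives other than single arrays left out, the lowest were 1.20, 0.76 and 0.54, and the call was kept in 13, 10 and 12. The count was 2 without KO P7 replicate 1 or KO P10 replicate 2. The call of Slc39a8 was kept in 13 of the 37 fits that left out 1 array. Without the lymphocyte-rich arrays its difference was -0.09 (adjusted p = 0.949), with lymphocyte and muscle scores as covariates it was -0.27 (adjusted p = 0.786), and its values at P10 were 8.42 in replicate 1 and 7.62 and 7.86 in replicates 2 and 3.

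Against P0, the counts of members called were 2 at P7 and 3 at P10 in WT, where 29.3% and 21.4% of all tested genes differed (15.5% and 11.7% higher), and 1 at each of these stages in KO, where 16.2% and 30.7% differed (7.84% and 14.4% higher). Each of these calls was a rise. The members called were Atp13a4 in each case, with Slc30a4 in WT at both stages and Slc34a2 in WT at P10. Without KO P0 replicate 4 the KO count at P10 was 3, with Atp2c2 higher (0.72, adjusted p = 0.0376) and Slc39a8 lower (-0.63, adjusted p = 0.026). It was 2 without WT P0 replicate 1, WT P10 replicate 1 or 3, or KO P10 replicate 1 or 3.

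Of the other calcium, phosphate and zinc genes between 50% and 53.8% were called at P15, near the share of all genes in WT and somewhat above it in KO. Over all tested genes 48.8% differed in WT (21.6% higher, 27.3% lower) and 41.3% in KO (19.5% higher, 21.8% lower), and each count that follows stands beside these shares. Of 28 tested calcium genes outside the set, 8 rose and 6 fell in WT and 7 rose and 7 fell in KO (50% in each), with a median difference of 0.00 and -0.05. Orai1, the plasma membrane channel of store-operated calcium entry, rose by 1.51 ± 0.12 in WT and 1.31 ± 0.12 in KO, and Vdr, the vitamin D receptor, rose by 2.66 ± 0.30 and 2.24 ± 0.30. The stanniocalcin genes went opposite ways, with Stc1 higher by 2.04 ± 0.15 and 1.65 ± 0.15 and Stc2 lower, so that in WT Stc2 fell by 1.003 ± 0.23 and in KO it fell by 1.89 ± 0.23. Stim1, the reticulum sensor that gates Orai1, fell by 1.10 ± 0.10 in WT and 0.82 ± 0.10 in KO. Pth1r, the receptor for parathyroid hormone and its related protein, fell by 1.20 ± 0.18 and 0.67 ± 0.18.

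Of 10 tested phosphate genes, 3 rose and 2 fell in each genotype (50%). Fam20c, the Golgi kinase that phosphorylates casein, rose by 2.38 ± 0.28 in WT and 2.76 ± 0.28 in KO, and Slc20a1, a sodium-phosphate carrier, rose by 1.43 ± 0.16 and 1.75 ± 0.16. Kl, which encodes the co-receptor klotho, rose by 0.25 ± 0.09 and 0.43 ± 0.09, and its WT call was kept in 40 of 51 alternatives. Alpl, the tissue-nonspecific alkaline phosphatase, fell by 0.45 ± 0.18 and 0.80 ± 0.18. Xpr1, the phosphate exporter, fell by 0.29 ± 0.10 and 0.68 ± 0.10. The WT decreases of Alpl and Xpr1 were kept in 44 and 47 of 51 alternatives.

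Of 26 tested zinc genes, 9 rose and 4 fell in WT (50%) and 10 rose and 4 fell in KO (53.8%). Slc39a4, the importer ZIP4, had the largest rise of the list at 3.21 ± 0.26 in WT and 2.74 ± 0.26 in KO, followed in WT by the importer Slc39a14 at 2.31 ± 0.22 and the Golgi zinc carrier Slc30a7 at 1.44 ± 0.10. In KO these last genes rose by 1.93 ± 0.22 and 0.77 ± 0.10. Slc39a13 fell by 0.83 ± 0.07 in WT and 0.50 ± 0.07 in KO, and Slc39a1 fell by 0.65 ± 0.11 and 0.83 ± 0.11. Slc30a9 fell by 0.38 ± 0.11 in WT (adjusted p = 0.00386) and was at 0.09 ± 0.11 in KO (adjusted p = 0.562).

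Of 8 tested copper genes and relatives of Atp13a4, 6 rose and none fell in WT, and 5 rose and 1 fell in KO (75% in each, against 48.8% and 41.3% of all genes), with medians of 0.64 and 0.38. Atp7b, the copper pump that delivers copper to milk, rose by 3.05 ± 0.25 in WT and 2.80 ± 0.25 in KO. The copper importers Slc31a1 and Slc31a2 rose by 0.77 ± 0.10 and 0.66 ± 0.15 in WT and by 0.36 ± 0.10 and 0.39 ± 0.15 in KO, where the call of Slc31a2 was kept in 42 of 51 alternatives.

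Markers of cell types moved over the same interval. At P15 against P0, 9 of 15 pan-epithelial markers rose and 2 fell in WT, and 7 rose and 2 fell in KO, with scores of -0.86 to 0.42 at WT P0, -0.39 to 0.36 at KO P0, 0.27 to 0.48 at WT P15 and 0.34 to 0.39 at KO P15. All 9 tested white adipocyte markers fell in WT and 8 fell in KO. All 7 tested hormone-sensing luminal markers fell in both genotypes, with medians of -1.29 in WT and -1.71 in KO. Of 10 myoepithelial markers 7 rose and 1 fell in WT, and 3 rose and 2 fell in KO. All 9 tested milk protein and alveolar genes, among them Wap, Glycam1 and Elf5, rose in both genotypes. With the pan-epithelial score as a covariate the P15 rise of Atp13a4 was 4.41 in WT and 4.70 in KO, that of Slc34a2 3.21 and 2.82, and that of Atp2c2 2.68 and 2.97. Under that covariate the 7 members that rose stayed called in both genotypes, Slc39a8 with adjusted p = 0.0446 in WT and 0.0436 in KO. No marker of the secretory alveolar cell itself entered a covariate, so its part was not tested.

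KO and WT glands were compared at each stage to ask whether loss of PTP1B altered these genes. No member was called by limma at any stage, in the mean over the 5 stages or in the test of a change of the genotype difference between stages. Over all tested genes the share called was 1.7% at oestrus, 0.119% on day 3, 0.00593% on day 7, 17.2% on day 10 and 11.1% on day 15, with 2.43% in the mean and 18% in the test between stages. Members with an unadjusted p under 0.05 numbered 3, 0, 0, 1 and 0 at the 5 stages in order and 1 each in the mean (Slc34a2) and in the test between stages (Slc39a8). Of all tested genes 20.8%, 7.1%, 2.63%, 30.8% and 23.8% had such a p at the 5 stages, 17.8% in the mean and 34.5% in the test between stages.

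At P15, where the transport genes were highest, the KO minus WT differences ran from -0.16 to 0.30 in the fit of all arrays. They were 0.00 for Slc34a2 (95% interval -0.77 to 0.78), 0.00 for Atp13a4 (-0.49 to 0.50), -0.02 for Atp2c2 (-0.49 to 0.45), 0.01 for Slc30a2 (-0.23 to 0.26) and 0.11 for Atp2b2 (-0.15 to 0.37). Slc39a8 was at 0.30 (-0.10 to 0.70), Slc30a4 at -0.16 (-0.45 to 0.12) and Casr at 0.06 (-0.30 to 0.43). The interval was narrowest for Slc30a2 and widest for Slc34a2. Without the array labelled KO P15 replicate 3, whose Ptpn1 was inside the WT range, again no member was called, but the estimates moved. The differences were then 0.43 for Slc39a8, -0.22 for Slc30a4, 0.21 for Atp2b2, 0.15 for Slc34a2, 0.10 for Atp13a4 and -0.004 for Slc30a2.

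At P0 the unadjusted differences were 0.78 ± 0.38 for Slc34a2 (95% interval 0.01 to 1.55), 0.46 ± 0.20 for Slc39a8 (0.06 to 0.86) and 0.29 ± 0.14 for Slc30a4 (0.01 to 0.58), all higher in KO and all with overlapping groups. Their adjusted p-values were 0.236, 0.184 and 0.229. The pan-epithelial score was also higher in KO at P0, with a mean of 0.09 against -0.38 in WT, and with that score as a covariate the differences were 0.39 for Slc34a2, 0.42 for Slc39a8 and 0.05 for Slc30a4 (adjusted p = 0.68, 0.376 and 0.882). The value of Slc34a2 moved with single WT P0 arrays, to 0.44 without replicate 1 and to 1.12 without the muscle-rich replicate 4, which read 8.23 (adjusted p = 0.573 and 0.168). For Slc34a2 the mean over the 5 stages was 0.43 ± 0.18 higher in KO (adjusted p = 0.18).

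At P10 all 3 KO arrays of Atp13a4, of which replicates 2 and 3 were lymphocyte-rich, lay above all 3 WT arrays, and the difference did not pass the test. It was 0.69 ± 0.28 (95% interval 0.12 to 1.26, adjusted p = 0.0849). Without WT P10 replicate 1 it was 0.43 (adjusted p = 0.398), and without the lymphocyte-rich arrays, with 1 KO array left, it was 0.92 (adjusted p = 1.0). It was called with the pan-epithelial score as a covariate (0.98, adjusted p = 0.00583), without the muscle-rich arrays (0.69, adjusted p = 0.037), without KO P7 replicate 3 (0.69, adjusted p = 0.0495) and without WT P10 replicate 3 (0.90, adjusted p = 0.0497). For Slc39a8 the KO minus WT difference at P10 was -0.45 ± 0.23 (adjusted p = 0.177). It moved with the lymphocyte-rich arrays, to 0.01 without them (adjusted p = 1.0) and to -0.27 without KO P10 replicate 2 (adjusted p = 0.603). Without KO P10 replicate 1, which left the lymphocyte-rich arrays alone, it was -0.67 and was called (adjusted p = 0.0327), and 1 member was then also called in the test between stages. With array weights it was -0.64 and was called (adjusted p = 0.00261).

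**Figure D4:**
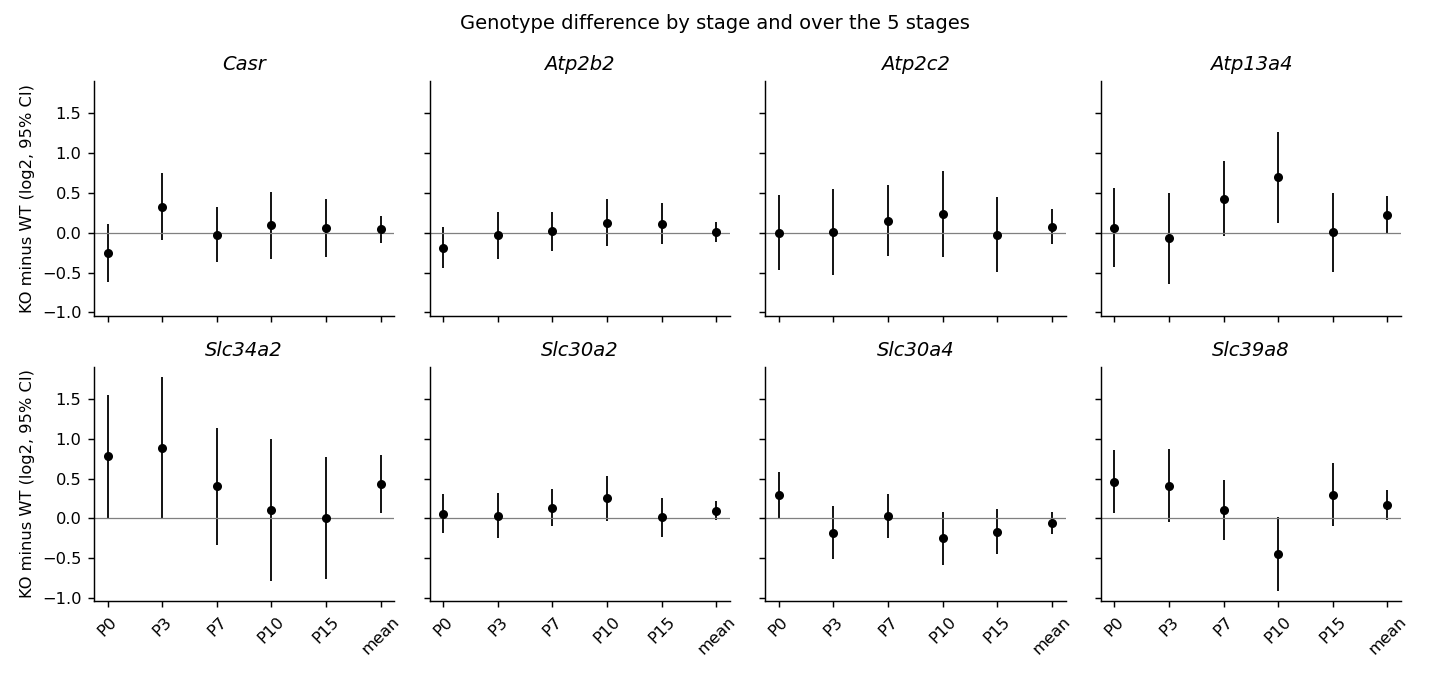
KO minus WT difference in log2 units (vertical axis, with 95% intervals) for the 8 genes at P0, P3, P7, P10 and P15 and for the mean over the 5 stages (horizontal axis). No difference passed the adjusted threshold. Atp13a4 at P10 is at 0.69 and the P15 values of Slc34a2, Atp13a4 and Atp2c2 lie at 0.00, 0.00 and -0.02.

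In several groups 1 array was highest or lowest for most members. Such ranks were not counted over all tested genes. WT P15 replicate 3 was lowest for 7 of 8 members. WT P7 replicate 1 and KO P7 replicate 3 were each highest for 6 of 8. Among the WT P10 arrays replicate 3 was highest and replicate 1 lowest for all 8 members. Replicate 3 also had the higher milk gene score, 0.81 against 0.07, and the higher pan-epithelial score, 0.18 against -0.54. Among the KO P10 arrays, replicate 1 was highest for 6 of 8 members and the lymphocyte-rich replicate 3 lowest for 6 of 8. KO P3 replicate 1, muscle-rich, was highest of its group for 7 of 8 members, and its milk gene score was 0.15 against -1.83 and -1.20 in the other KO P3 arrays.

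**Figure D5:**
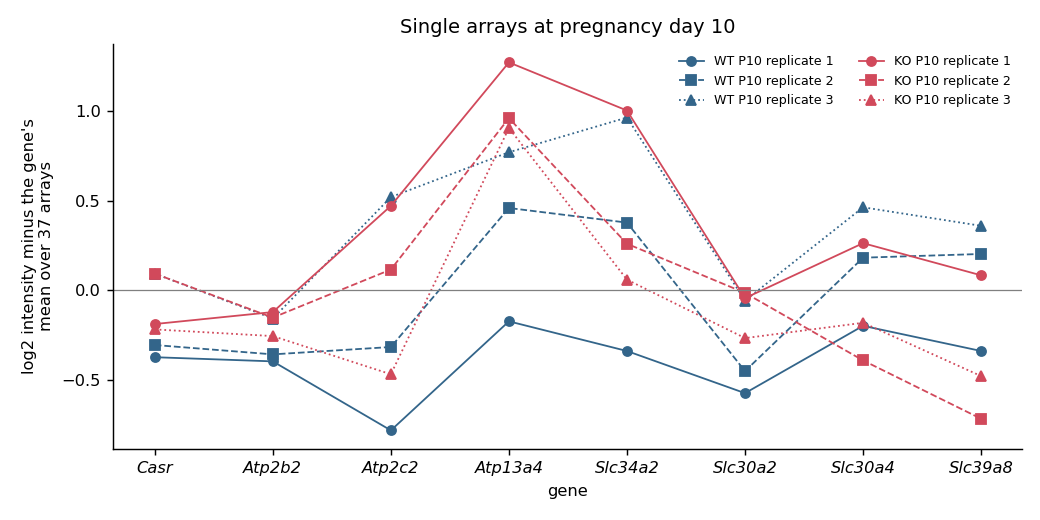
Log2 intensity of the 8 genes (horizontal axis) in each of the 6 P10 arrays, as the difference from the gene's mean over the 37 arrays (vertical axis), with 1 line per array. WT replicate 1 lies below and WT replicate 3 above the other WT line for all 8 genes.

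Among all filtered genes, those with the group means most like each member were found by Pearson's r over the 10 group means. For the members that rose, the step at P15 is common to all of these means. The nearest were Cnga4 for Atp2b2 (r = 0.995), Slc9a4 for Atp2c2 (r = 0.993), Rnf145 for Atp13a4 (r = 0.996) and Lipa for Slc34a2 (r = 0.988, the lysosomal acid lipase). For the zinc transporters they were Ttc39a for Slc30a2 (r = 0.997), Mfsd6 for Slc30a4 (r = 0.991) and Eps8l2 for Slc39a8 (r = 0.966). Casr was nearest to Sbk2 (r = 0.972). Atp2b2 and Slc30a2 shared Drd4 among their 3 nearest, at 0.991 and 0.994. Atp2c2 and Slc30a2 shared Gm11437, at 0.992 for each.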

How the data were processed

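RNA of whole mammary glands was measured on 37 Affymetrix arrays. The authors deposited log2 intensities per probe set, and affy is named per the submitters' processing notes. How background was corrected and probes were summarised and normalised is not given in the sources used here. Array medians ranged from 6.52 to 6.79. Of 34760 probe sets, 21640 carried 1 symbol, 1321 several and 11799 were unnamed in the annotation used. The probe set with the highest mean stood for a gene, and each member had 1. The Entrez IDs of the 8 measured members matched RefSeq (GRCm38.p6). A gene was tested if 3 or more arrays exceeded 4.96, the 25th percentile of all values, and 3072 of 19937 genes were left out.

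Group means were fitted over all 37 arrays with limma 3.58.1 in R 4.3.3 (lmFit, eBayes), two-sided, with Benjamini-Hochberg adjustment over 16865 genes and a threshold of 0.05. Intervals are 95% intervals of the moderated fit. The number of arrays limits the precision, and levels of different probe sets were not compared. Alternatives changed the filter, the probe sets, the scaling, the variance prior, the array weights, a replicate block, the groups fitted, marker covariates and the arrays kept. Pathway genes were named where called at P15 against P0 in WT, up to 3 risers and 3 fallers per list, and where called in the mean genotype difference. The members and lists were chosen with earlier results of these data known.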

Additional observations from a re-analysis of the deposited data

Results flagged for a closer look

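In 4 of the 48 combinations of a gene and a group of 4 or 5 arrays, 1 array lay far from the others by Dixon's criterion, which marks about 5% of groups by chance. Slc39a8 was lowest in WT P0 replicate 2 at 7.717, with the next array at 8.026. Atp13a4 was highest in KO P0 replicate 4 at 6.185, above 5.664. Slc30a2 was lowest in WT P7 replicate 3 at 6.055, below 6.177. Atp2b2 was highest in KO P7 replicate 2 at 6.743, above 6.467.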

How the results depend on the processing

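The P15 rises of Atp2b2, Atp2c2, Slc34a2, Slc30a2, Slc30a4, Atp13a4 and, in WT, Slc39a8 kept their call under all 51 alternatives. Counts of members called that moved were as follows, in each case of 8, and the cause was not tested. With all probe sets tested WT P7 against P3 had 2. With array weights the counts were 0 for WT P3, 5 for WT P10, 4 for KO P3, 2 for KO P7 and 2 for KO P10 against P0, 3 for WT P10 against P7, 4 for KO P7 against P3, 2 for KO against WT at P10 and 2 in the test of whether the genotype difference changed between stages. With median centring they were 2 for KO P3 and 2 for KO P10 against P0, 1 for WT P10 against P7 and 1 between stages. Quantile normalisation gave 2 for KO P10 against P0. Fitting the compared groups alone gave 0 for WT P3, 1 for WT P10, 0 for KO P3 and 2 for KO P7 against P0. Lymphocyte and muscle covariates gave 0 for WT P3 and 2 for KO P3 against P0, 1 for WT P10 against P7 and 1 for KO P10 against P7. The pan-epithelial covariate gave 2 for WT P3 and 4 for KO P10 against P0, 3 for WT P10 against P7, 1 for KO against WT at P10 and 1 between stages. Same-numbered WT and KO arrays deviated from their group means with correlations from -0.525 to 0.384. These values do not show whether such arrays were paired, which was not tested. The replicate block gave 0 for KO P3 against P0 and 2 for WT P7 against P3. Without the 7 arrays that stood apart the counts were 0 for WT P3 and 2 for KO P3 against P0, 2 for WT P7 against P3, 1 for WT P10 against P7 and 2 for KO P10 against P7. A pair of settings was chosen after seeing the data: without lymphocyte-rich arrays there was 1 for WT P7 against P3 and 0 for KO P10 against P7, and without muscle-rich arrays 0 for WT P3 and 2 for KO P3 against P0, 1 for WT P10 against P7 and 1 for KO against WT at P10. With each array left out in turn the counts ran from 0 to 2 for WT P3, 2 to 3 for WT P7, 2 to 4 for WT P10, 7 to 8 for WT P15, 0 to 2 for KO P3, 1 to 1 for KO P7, 1 to 3 for KO P10 and 6 to 7 for KO P15 against P0, 0 to 4 for WT P7 against P3, 0 to 1 for WT P10 against P7, 2 to 5 for KO P10 against P7, 0 to 1 for KO against WT at P10 and 0 to 1 between stages. Median centring moved the median of all genes by more than 0.1, from -0.06 to -0.25 in WT and from 0.01 to -0.13 in KO at P15 against P0. With few arrays a group, the intervals of the genotype differences set the limit of what could be detected.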

Other observations

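Orai1, the calcium entry channel, was the single gene of the calcium, phosphate, zinc and copper lists called in the mean KO minus WT difference over the 5 stages, at 0.22 ± 0.06 log2 units higher in KO (adjusted p = 0.0355, limma). The call was kept in 31 of 50 alternatives, in which the difference ranged from 0.19 to 0.25 and the adjusted p reached 0.146. It was lost without the muscle-rich arrays (0.20, adjusted p = 0.0872) and without the lymphocyte-rich arrays (0.23, adjusted p = 0.131).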
